A study of Mus musculus with 200 samples.

Results

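The genes described here encode the conjugating enzymes of drug metabolism: the UDP-glucuronosyltransferases (UGTs), the glutathione S-transferases (GSTs) and the sulfotransferases (SULTs). Members were all rows of the count table whose symbol begins with Ugt1, Ugt2, Ugt3 or Ugt8, with Gst followed by the letter of a class (a, k, m, o, p, t or z) and a number, or with Sult and a number. This gave 60 genes of 38406 in the table, with 21 UGT, 21 GST and 18 SULT genes. The choice used symbols and no measured value.

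Conjugating enzymes make fat-soluble compounds easier to excrete by joining a polar group to them. UGTs transfer a sugar from a nucleotide sugar, chiefly glucuronic acid, to bilirubin, steroids, bile acids and drugs. GSTs join the tripeptide glutathione to reactive electrophiles, and SULTs transfer sulfate from the donor PAPS to phenols, steroids and bile acids. Many of these genes lie in tandem clusters and are best known from liver, gut and kidney. Medullary thymic epithelial cells transcribe genes of other tissues in small numbers of cells at a time, so that developing T cells meet self antigens. Aire is a nuclear regulator of this transcription.

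The 200 cells, each profiled singly, came from the thymus medulla of mice that were female, B6xNOD and 5 weeks old, and were labelled as epithelial. Cells were sorted as CD45-, Ly51- and MHCII+ with either high (GFPhi) or low (GFPlo) signal of an Aire-GFP transgene, which mice of both genotypes carried as a marker of Aire expression. The Aire gene was either intact (WT) or knocked out (KO). Wild-type mice gave 61 GFPhi and 39 GFPlo cells, and knockouts 48 and 52. The question that these groups pose is how the members' transcripts differ with Aire genotype and with reporter level. Since no animal is named for any cell, a group was taken as 1 sample and no difference was tested. The cells are not replicates of a condition.

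Group sums ran from 1847240 to 3468109 counts and totals per cell from 2429 to 370365, with a median of 29106.5. Cells came from 2 sort dates and from 12 sets that share the first part of their title, 6 of each date. These sets are called pools here, although the titles do not say what that part stands for. With levels as counts per 1000000 (CPM), Aire itself came to 537 and 244 CPM in the GFPhi and GFPlo cells of wild types and to 815 and 316 in those of knockouts. The deleted stretch of Aire is not named, and a tag near the transcript's end therefore checks nothing about the knockout. In WT GFPlo cells the Aire level was 465 CPM on the first date and 38.4 on the second. In KO GFPlo cells it was 622 and 138 CPM, so cells of both GFPlo labels differed between dates. Of 10 epithelial markers, 10, 10, 9 and 10 had counts in the 4 groups, listed from here on with wild type before knockout and GFPhi before GFPlo, with only Krt19 at 0 in KO GFPhi. Of 21 leukocyte markers, 21, 19, 21 and 21 had counts, with Cd3e and Cd8a at 0 in WT GFPlo. Their summed level was 7487, 5845, 1451 and 3722 CPM in the same order. Per cell it ran from 392 to 54677 CPM in WT GFPhi, 190 to 42564 in WT GFPlo, 33.1 to 6310 in KO GFPhi and 169 to 15960 in KO GFPlo. Cells whose leukocyte marker counts exceeded their epithelial ones are called leukocyte-marked here and numbered 20, 8, 5 and 19. They held 27.02% of all member counts, with 34.2% for GSTs, 10.97% for SULTs and 7.86% for UGTs. Of the counts of all genes, they held 1638479 of 3468109 in WT GFPhi and 575764 of 2260672 in WT GFPlo. In KO GFPhi they held 170602 of 3011900 and in KO GFPlo 816568 of 1847240. The member shares are to be read beside these. Log2 ratios without these cells are given where they lie outside the counting interval of the full value.

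Members were sparse. Together they had 4538 of 10587921 counts, and 48 of 60 had at least 1 count, while 12 had none. At least 20 counts were found for 26 members and at least 100 for 8, of which 6 were GSTs (Gstm1, Gsta2, Gsto1, Gstt2, Gstm6 and Gstz1) and 2 were SULTs (Sult1c2 and Sult2b1). No UGT reached 100 counts, and 8 of 21 UGTs had none. Gstm1 had counts in 64 of 200 cells and Sult1c2 in 62, whereas 26 members had counts in only 1 to 5 cells. In 11 of the 26 members with at least 20 counts, more than 50% of the counts came from 1 cell. The group level of such a member is largely the level of that cell.

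**Figure D1:**
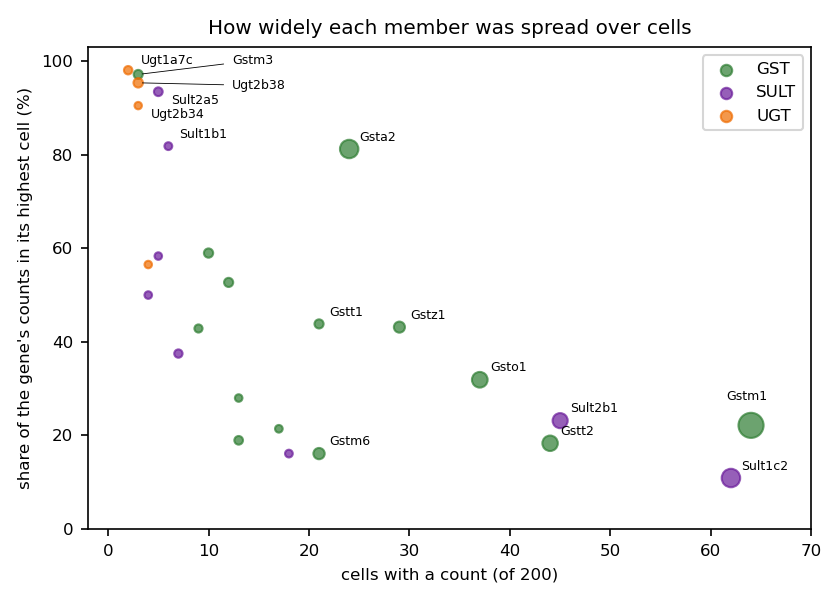
Each point is 1 of the 26 members with at least 20 counts over 200 cells, coloured by family, with area growing with its counts; the x axis gives the number of cells with a count and the y axis the share of the member's counts in the cell with most of them (%). Gstm1 and Sult1c2 lie at the right with 22.2% and 10.9% of counts in that cell, while Gsta2, in 24 cells, has 81.2% there, and the UGTs lie at the left.

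Levels in CPM are counts per 1000000 of a group's summed counts, with exact Poisson 95% intervals. Ratios carry exact conditional binomial 95% intervals, and shares of cells exact binomial ones. All of these cover counting error of tags only, not differences between cells, animals or dates. For log2 ratios, 0.5 was first added to both sums.

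GSTs held 3160 of the 4538 member counts. The mu class, whose enzymes conjugate epoxides and other electrophiles, formed the largest block, with 7 genes within chr3:107895821-108044894 (mm10), 1450 counts and counts in 87 cells. Gstm1 (chr3:108012255-108017973, minus strand) was at 224 CPM (208 to 240) in WT GFPhi cells, 61.5 (51.7 to 72.6) in WT GFPlo, 42.8 (35.8 to 50.9) in KO GFPhi and 21.1 (15.01 to 28.9) in KO GFPlo. Counts were found in 31 of 61, 11 of 39, 15 of 48 and 7 of 52 cells. Per cell the lowest value was 0 in every group, the median was 14.4 CPM in WT GFPhi and 0 in the other groups, and the highest was 2122, 331.5, 344 and 468.5 CPM. WT GFPhi cells stood above the others both in the share of cells with a count and in the highest cells, but the ranges of single cells overlapped in all groups. Because depth differs between cells, shares were also computed with each cell thinned to 10000 counts, which left 55, 32, 44 and 48 cells. At this depth Gstm1 would be found in 42.5%, 22.5%, 19.5% and 11.2% of cells, and WT GFPhi was again the highest. Leukocyte-marked cells held 48.4% of Gstm1 counts, with 305 CPM in those of WT GFPhi and 151 in its other cells. Of the 499 counts in marked WT GFPhi cells, 240 came from 1 cell. Marked and other cells were at 1.74 and 81.9 CPM in WT GFPlo, 64.5 and 41.5 in KO GFPhi and 15.9 and 25.2 in KO GFPlo.

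Gstm6 was the second mu-class gene, with 155 counts in 21 cells. Its level was 22.5 CPM (17.8 to 28.1) in WT GFPhi, 11.5 (7.51 to 16.9) in WT GFPlo, 15.9 (11.8 to 21.1) in KO GFPhi and 1.62 (0.335 to 4.75) in KO GFPlo, with counts in 13, 2, 5 and 1 cells. The value of WT GFPlo rests on 1 cell with 88.5% of that group's counts. Gstm2, Gstm3, Gstm4, Gstm5 and Gstm7 had from 17 to 70 counts each. Gstm3 was found in 3 WT GFPhi cells and in no other group, and 68 of its 70 counts came from a single leukocyte-marked cell. Gstm7 likewise had counts in WT GFPhi alone, in 2 cells.

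Neighbouring mu-class genes were found together in some cells. Of the 87 cells with a count from this cluster, 28 had counts of 2 or more of its members and the most in 1 cell were 4. Cells with 2 or more numbered 15 in WT GFPhi, 6 in WT GFPlo, 6 in KO GFPhi and 1 in KO GFPlo. These numbers were not thinned, and deeper cells can show more members.

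The alpha class, which reduces lipid peroxides and conjugates products of lipid peroxidation, was led by Gsta2 (chr9:78331018-78355788, minus strand). Its level was 13.3 CPM (9.71 to 17.7) in WT GFPhi, 215 (196 to 235) in WT GFPlo, 1.66 (0.539 to 3.87) in KO GFPhi and 5.95 (2.97 to 10.7) in KO GFPlo, with counts in 8, 9, 3 and 4 cells. The lowest and median cells were at 0 in every group and the highest were at 168, 1448, 48.3 and 284 CPM. In WT GFPlo, 445 of 486 counts came from 1 cell of the first date. Gsta4, known for conjugating 4-hydroxynonenal, had 63 counts in 5 WT GFPhi cells, 11 in WT GFPlo, 0 in KO GFPhi and 4 in KO GFPlo. A single WT GFPhi cell held 46 of the 63. Gsta1 had 13 counts, 11 of them from the WT GFPlo cell that held most of Gsta2.

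The 250 bases before a start of Gstm1 and the 227 of Gsta2 that lie outside annotated exons are shown, because these genes carry most of the summed WT-to-KO difference in GFPhi and in GFPlo respectively. Both come from RefSeq's promoters on GRCm38.p6, are written 5′ to 3′ on the gene's minus strand and cover chr3:108017974-108018223 and chr9:78347169-78347395. Capitals mark 2 kinds of match, GCGTG, the core of the xenobiotic response element, and TATAAA, the TATA box, each searched on both strands. The Gsta2 capitals are TATAAA on the opposite strand, at position -246 from the start. Gsta2 also has GCGTG at -7, in bases not shown. Another Gstm1 start, whose window is not shown, has TATAAA at -30.
Gstm1: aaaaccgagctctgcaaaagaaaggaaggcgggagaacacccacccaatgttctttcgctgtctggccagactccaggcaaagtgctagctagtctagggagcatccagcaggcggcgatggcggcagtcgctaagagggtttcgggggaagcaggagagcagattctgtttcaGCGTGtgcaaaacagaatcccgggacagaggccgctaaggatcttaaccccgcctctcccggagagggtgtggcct
Gsta2: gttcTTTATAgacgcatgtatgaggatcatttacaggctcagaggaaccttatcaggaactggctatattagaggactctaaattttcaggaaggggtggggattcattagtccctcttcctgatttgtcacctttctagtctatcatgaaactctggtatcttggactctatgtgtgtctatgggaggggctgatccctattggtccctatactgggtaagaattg

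RefSeq promoters, from 250 bases before to 50 after a start, matched 52 of the 60 members and gave 62 windows. GCGTG, on either strand, was in 13 of these windows (20.97%) against 32.4% of 32851 mouse windows of the same length. TATAAA was in 10 (16.1%) against 13.6%. TGACNNNGC, the core of the antioxidant response element bound by Nfe2l2, was in 3 (4.84%), those of Gsta3, Gstm5 and Gstm7, against 12.4%. A TGACNNNGC match that runs on into GTG also holds GCGTG. These matches describe sequence only.

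Among the other GST classes, Gstt2 of the theta class was at 67.5 CPM (59.1 to 76.7) in WT GFPhi, 17.7 (12.6 to 24.1) in WT GFPlo, 13.9 (10.1 to 18.8) in KO GFPhi and 23.8 (17.3 to 31.98) in KO GFPlo. Counts were in 23 of 61, 6 of 39, 7 of 48 and 8 of 52 cells, the median cell was at 0 in each group, and the highest cells were at 784, 387, 164 and 1111 CPM. WT GFPhi was the group with most positive cells, while the highest single cell was in KO GFPlo. By date, the level in WT GFPhi was 161 and 19.99 CPM. Gstt1 had 18 counts in 15 WT GFPhi cells and 32 in 1 WT GFPlo cell, so the group with the higher level had fewer positive cells. It had 0 counts in KO GFPhi and 23 in KO GFPlo.

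Gstz1, which is also the maleylacetoacetate isomerase of tyrosine breakdown, was at 31.7 CPM (26.1 to 38.2) in WT GFPhi, 2.65 (0.974 to 5.78) in WT GFPlo, 6.64 (4.06 to 10.3) in KO GFPhi and 5.41 (2.60 to 9.96) in KO GFPlo. Counts were in 16, 1, 9 and 3 cells, with the highest cells at 330, 569, 100.03 and 447.5 CPM and medians of 0. Of the 110 counts in WT GFPhi, 57.3% came from 1 cell. Gstk1, the kappa-class enzyme of mitochondria and peroxisomes, had 15, 46, 1 and 12 counts, and 1 cell held 84.8% of those in WT GFPlo. Gstp1, the pi-class enzyme, had 9, 3, 7 and 9 counts or 1.33 to 4.87 CPM.

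Gsto1 of the omega class, which reduces dehydroascorbate, was at 32.3 CPM (26.6 to 38.9) in WT GFPhi, 19.02 (13.8 to 25.6) in WT GFPlo, 40.5 (33.6 to 48.4) in KO GFPhi and 51.97 (42.1 to 63.5) in KO GFPlo. Counts were in 15 of 61, 4 of 39, 3 of 48 and 15 of 52 cells, with medians of 0 and highest cells at 261, 749, 1039 and 722 CPM. The KO GFPhi level came almost wholly from 1 cell with 97.5% of the counts, and the group had the smallest share of positive cells. On the first date Gsto1 had counts in WT GFPhi alone. Leukocyte-marked cells held 52.01% of its counts. In KO GFPlo it was at 107 CPM in the 19 marked cells and 8.73 in the 33 others, and in WT GFPhi at 57.4 and 9.84. The part of leukocyte transcripts in its level was not tested.

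Among SULTs, Sult1c2, which sulfates phenols, was higher in KO than in WT. It was at 35.5 CPM (29.5 to 42.3) in WT GFPhi, 22.1 (16.4 to 29.2) in WT GFPlo, 91.0 (80.5 to 102) in KO GFPhi and 55.8 (45.5 to 67.6) in KO GFPlo. Counts were in 16 of 61, 6 of 39, 24 of 48 and 16 of 52 cells. Per cell the lowest was 0 in each group, the median was 7.85 CPM in KO GFPhi and 0 elsewhere, and the highest was 312, 150, 600 and 852 CPM. Over both dates together, both KO groups stood above both WT groups in level and in share of cells, with overlapping single cells. By level this order held on the first date, but on the second KO GFPlo was below WT GFPhi. Thinned to 10000 counts, Sult1c2 would be found in 13.6%, 7.61%, 36.3% and 23.5% of cells. Its neighbour Sult1c1, also on chromosome 17, had 26 counts in 4 WT GFPhi cells and 0 in the other 3 groups. Of 64 cells with a count of either gene, 2 had both.

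Sult2b1, which sulfates cholesterol and is known from stratified epithelia, was at 17.3 CPM (13.2 to 22.3) in WT GFPhi, 39.8 (32.01 to 48.9) in WT GFPlo, 42.5 (35.5 to 50.5) in KO GFPhi and 34.1 (26.2 to 43.6) in KO GFPlo. Counts were in 15, 8, 14 and 8 cells, medians were 0 and the highest cells were at 172, 976, 316 and 618 CPM. The intervals of WT GFPlo, KO GFPhi and KO GFPlo overlapped, and WT GFPhi was below them. Only 2.35% of its counts came from leukocyte-marked cells. In KO GFPhi 1 cell held 61.7% of the counts.

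The other SULTs were rarer. Sult2a5, one of the hydroxysteroid sulfotransferases of liver, had 58 of its 61 counts in WT GFPlo, 57 of them in the same cell that held most Gsta2. Sult4a1, known from brain, had 46 of 48 counts in 5 WT GFPhi cells, all of the second date. Sult1b1 had 30 counts in 4 WT GFPhi cells, 27 of them in 1. Sult1d1, which acts on catecholamines, had 24 counts in 5 cells, and Sult1a1, the main phenol sulfotransferase, had 31 counts spread over 18 cells. The estrogen sulfotransferase Sult1e1 and Sult6b1 were at 0 in all 200 cells. A count of 0 allows a level of up to 0.865 CPM in WT GFPhi, 1.33 in WT GFPlo, 0.996 in KO GFPhi and 1.62 in KO GFPlo, taking 3 counts over a group as the limit.

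UGTs gave 229 counts. Only Ugt2b38, Ugt1a7c, Ugt2b5 and Ugt2b34 had at least 20, and in each more than 50% came from 1 cell. Ugt2b38 had 82 of its 86 counts in 1 KO GFPhi cell and Ugt1a7c 50 of its 51 in another. Ugt2b5 had 23 counts in 4 WT GFPhi cells and 0 elsewhere, and Ugt2b34 had 19 of 21 in 1 WT GFPhi cell. Ugt8a, the ceramide galactosyltransferase of myelin, was the most widely found UGT despite having 15 counts. These lay in 13 cells, 10 of which were WT GFPhi, 1 WT GFPlo and 2 KO GFPhi. Ugt2a3 had 12 counts, all in 4 WT GFPlo cells, and Ugt3a2, of a family that uses sugars other than glucuronic acid, had 11 counts in 10 cells.

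The 9 Ugt1a genes are alternative first exons joined to shared exons at chr1:88055388-88220002. For 8 of them every 40-base window of the last 400 bases is shared with another gene, so counts from transcript ends cannot be assigned to 1 of these genes. The annotation of Ugt1a7c runs 998 bases past the next furthest end, so tags there count for Ugt1a7c alone under this annotation, and it had 51 of the cluster's 55 counts. Ugt1a7c counts are therefore uncertain as to which Ugt1a transcript they came from. Over all members, more than 50% of these windows were shared with another gene for 15 and none for 31. Gstp1 shared 91.4% of its windows with Gstp2 and a pseudogene, and Gstp2 had 0 counts. Gsta1 shared 90.3%, Gsta2 54.3% and Sult2a5 59.3% with near copies, so their counts could be split or lost by the counting. Exons on the other strand overlap 12.21% of Gstz1's exonic bases, 13.9% of Gstm5's and 8.13% of Sult2b1's. Whether counting used strand is not given in the sources used here, so reads of both strands may be mixed there.

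**Figure D2:**
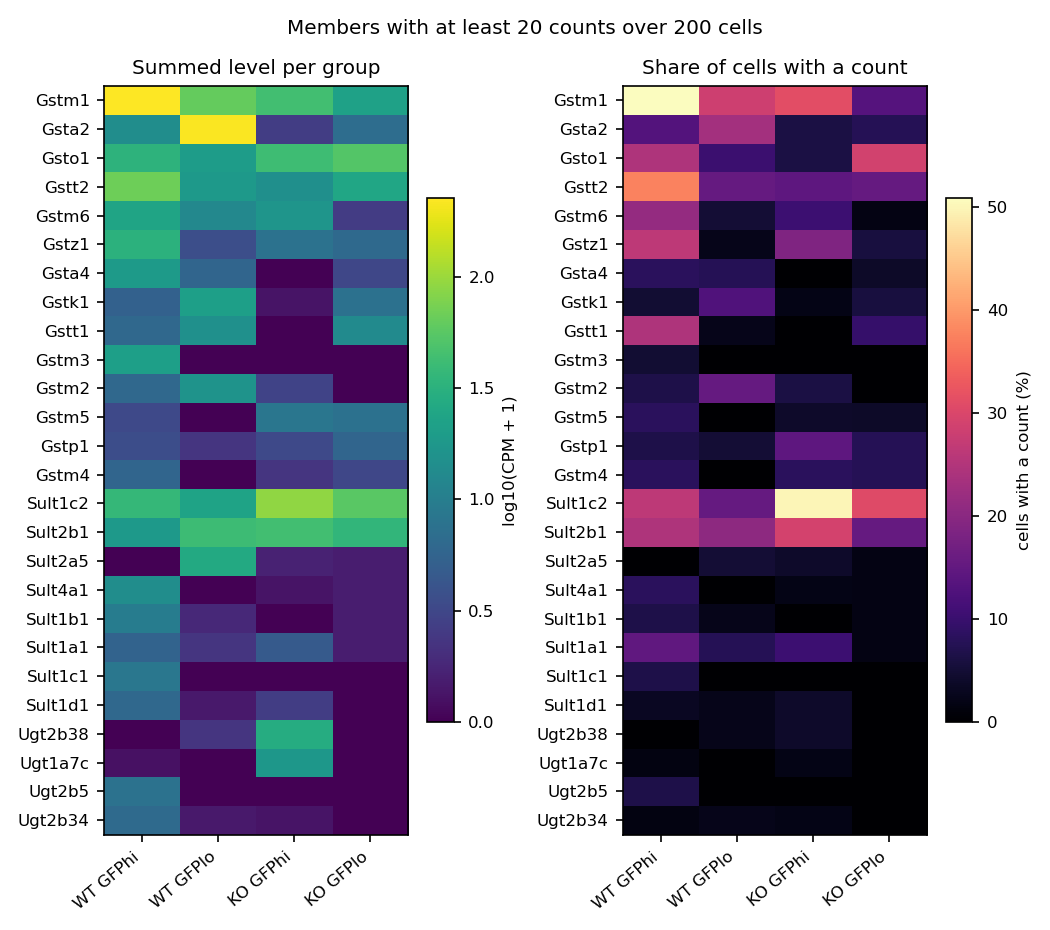
Rows are the 26 members with at least 20 counts, ordered by family and counts, and columns are the 4 groups; the left colour scale is log10(CPM + 1) of the summed level and the right one the share of cells with a count (%). Gstm1 is highest in WT GFPhi at 224 CPM with counts in 50.8% of cells, Sult1c2 is highest in KO GFPhi with 24 of 48 cells, and Gsta2 has its highest level, 215 CPM in WT GFPlo, with counts in 23.1% of cells.

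**Figure D3:**
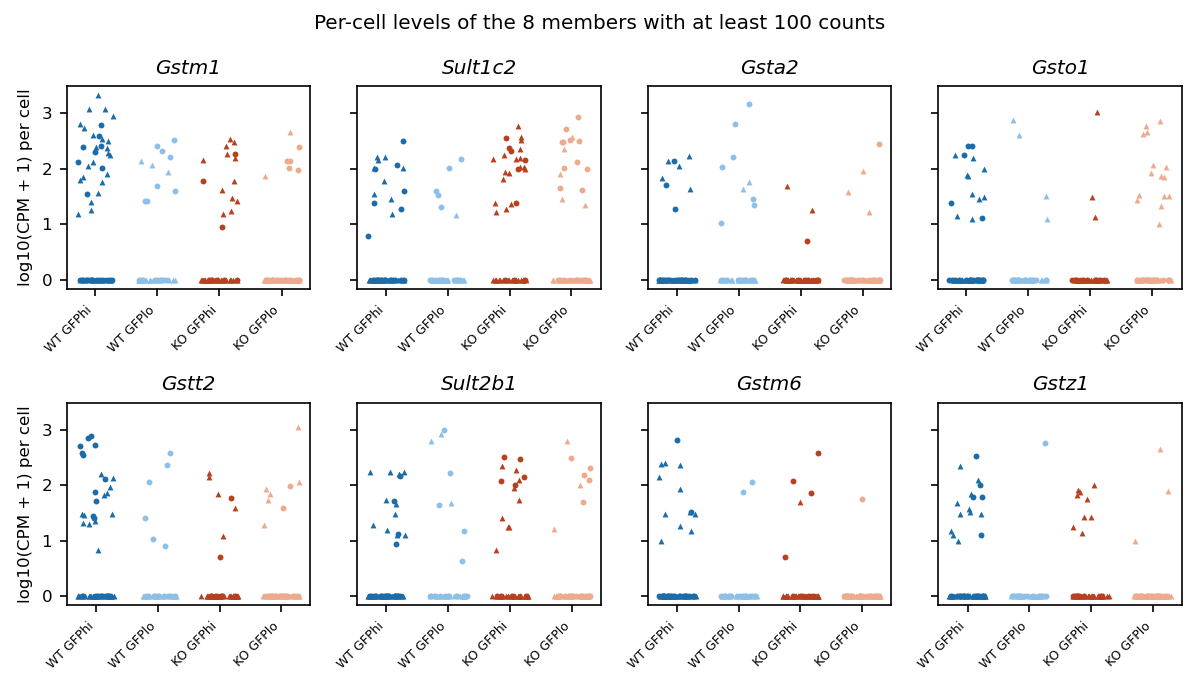
Each point is 1 cell, plotted for the 8 members with at least 100 counts by group (x axis) with its level as log10(CPM + 1) (y axis); circles are cells of the first sort date and triangles of the second. Most cells are at 0 for each member; Gstm1 reaches 2122 CPM in WT GFPhi, Gsta2 1448 CPM in WT GFPlo, and Gsto1 shows circles above 0 in WT GFPhi alone.

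In GFPhi cells, members were lower in KO than in WT as a sum, because GSTs were lower. All members together were at 325 CPM (305 to 346) in KO and 574 (549 to 599) in WT, a ratio of 0.566 (0.524 to 0.612). By date the ratio was 0.656 and 0.531, and without leukocyte-marked cells the log2 ratio was -0.73 against -0.82 with them. Without Gstm1 the ratio was 0.806 (0.737 to 0.881), so much of the difference was this gene's. GSTs were 3.39-fold lower in KO (3.04 to 3.79), with 136 against 460 CPM, and 4.26-fold and 3.10-fold lower on the 2 dates. Their log2 ratio of -1.76 was -1.52 without leukocyte-marked cells. GSTs without Gstm1 were 2.55-fold lower. By class, the mu genes were 4.09-fold lower, the theta genes 5.03-fold and the alpha genes 16.2-fold. SULTs were 1.48 times as high in KO (1.28 to 1.71), with 141 against 95.4 CPM, but this was 4.56 times on the first date, on which KO GFPhi had 9 cells, and 0.815 times on the second. The log2 ratio of 0.56 was 0.18 without leukocyte-marked cells. Without Sult1c2, SULTs were at 0.836 times the WT level (0.673 to 1.04).

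Of the 60 members, 22 had at least 20 counts over the 2 GFPhi groups. A member was called lower or higher where it was at least 2-fold apart. By this rule 14 were lower in KO, beside 27.3% of all 13564 genes with as many counts, and 5 were higher, beside 19.6%. The share of members called lower was 63.6%, and the median log2 ratio of the 22 was -1.99 against -0.10 for all genes. Here and below, all genes were not matched for level, or for counts lying in few cells, to the genes set beside them. A gene with counts in a single group passes the minimum and is called toward that group, as Gstm3 and Gsta4 were toward WT and Ugt2b38 toward KO. The contrast with all genes therefore cannot show a shift of the members as a set, which was not tested. By family, 8 of 11 GSTs, 4 of 7 SULTs and 2 of 4 UGTs were lower. With so many members resting on few cells, the calls are descriptions of these cells.

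Gstm1 was 5.22-fold lower in KO GFPhi than in WT GFPhi (4.33 to 6.34), a log2 ratio of -2.38. It was lower on both dates, at -1.11 and -2.88, and between -2.89 without pool 4 and -1.790 without pool 11, the pool of the cell with most Gstm1 counts. Without leukocyte-marked cells it was -1.86. Gstt2 was 4.84-fold lower (3.47 to 6.89), with a log2 ratio of -2.26 that was -5.78 on the first date, -0.11 on the second, -1.23 without pool 4, -4.29 without pool 11, -3.88 without the cell with most of its counts in each group and -1.73 without leukocyte-marked cells. Gstz1 was 4.78-fold lower (2.95 to 8.12), at -6.79 and -0.70 on the 2 dates and -1.19 without pool 5, -2.89 without pool 10 and -1.56 without the cell with most of its counts in each group. Gsta2 was 7.99-fold lower (3.19 to 25.8), between -3.40 without pool 8 and -1.88 without pool 5, and -3.98 without leukocyte-marked cells. The difference in Gstt2 and Gstz1 was thus large on the first date only.

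Among those at 0 in KO GFPhi, Gstm3 was at least 20.3-fold lower and Gsta4 at least 18.2-fold lower, with KO set at 3 counts over the group. On the same basis Sult1b1 was at least 8.68-fold lower, Sult1c1 7.53-fold and Ugt2b5 6.66-fold. All 70 Gstm3 counts were in leukocyte-marked cells, so without those cells neither group had a Gstm3 count. Single WT GFPhi cells held 68 of 70 Gstm3 counts, 46 of 63 Gsta4 counts, 27 of 30 Sult1b1 counts, 13 of 26 Sult1c1 counts and 13 of 23 Ugt2b5 counts. Sult4a1 had 1 count in KO and 46 in WT, a ratio of 0.025 (0.000620 to 0.147), with a log2 ratio of -4.75 that was -4.01 without pool 11, -5.88 without pool 10 and -5.65 without the cell with most of its counts in each group. The other members called lower were Ugt2b34, Gstm4, Sult1d1 and Gstm2, with log2 ratios from -3.50 to -1.31. Of these, Ugt2b34 was at 1.68 and Gstm2 at 2.21 on the second date. Ugt2b34 had only 1 count on that date over all groups, too few to give a direction.

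Members that were higher in KO GFPhi were Sult1c2, Sult2b1, Gstm5, Ugt2b38 and Ugt1a7c. Sult1c2 was 2.57 times as high (2.07 to 3.20), with a log2 ratio of 1.36 that was 3.18 and 0.57 on the 2 dates and 2.81 without pool 11. Without the cell with most of its counts in each group it was 1.97, and without leukocyte-marked cells 1.90. Sult2b1 was 2.46 times as high (1.794 to 3.40), but the log2 ratio was 4.56 on the first date and -0.59 on the second, 0.00089 without pool 6 and 2.36 without pool 11. It was 0.54 without the cell with most of its counts in each group and 0.48 without leukocyte-marked cells. Gstm5 was 3.17 times as high (1.36 to 8.23), on 22 and 8 counts, and 1 KO cell held 81.8% of the 22. Ugt2b38 was at 27.6 CPM against 0 and Ugt1a7c at 16.6 against 0.288, in each case almost wholly from 1 KO cell. Gsto1 was not called, at a log2 ratio of 0.33 that was -3.87 without pool 11, -4.51 without the cell with most of its counts in each group and 2.09 without leukocyte-marked cells.

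UGTs as a family were 2.72 times as high in KO GFPhi (2.00 to 3.73), at 47.8 against 17.6 CPM. Without Ugt2b38 the ratio was 1.15 (0.794 to 1.67). On the first date UGTs were lower in KO, with 3 against 38 counts, and on the second date they were 6.53 times as high. The family log2 ratio of 1.44 was 0.17 without pool 12, 2.58 without pool 6 and 0.71 without leukocyte-marked cells. In share of cells with any UGT count the groups were alike in size, with 22.9% (12.03% to 37.3%) in KO and 24.6% (14.5% to 37.3%) in WT.

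**Figure D4:**
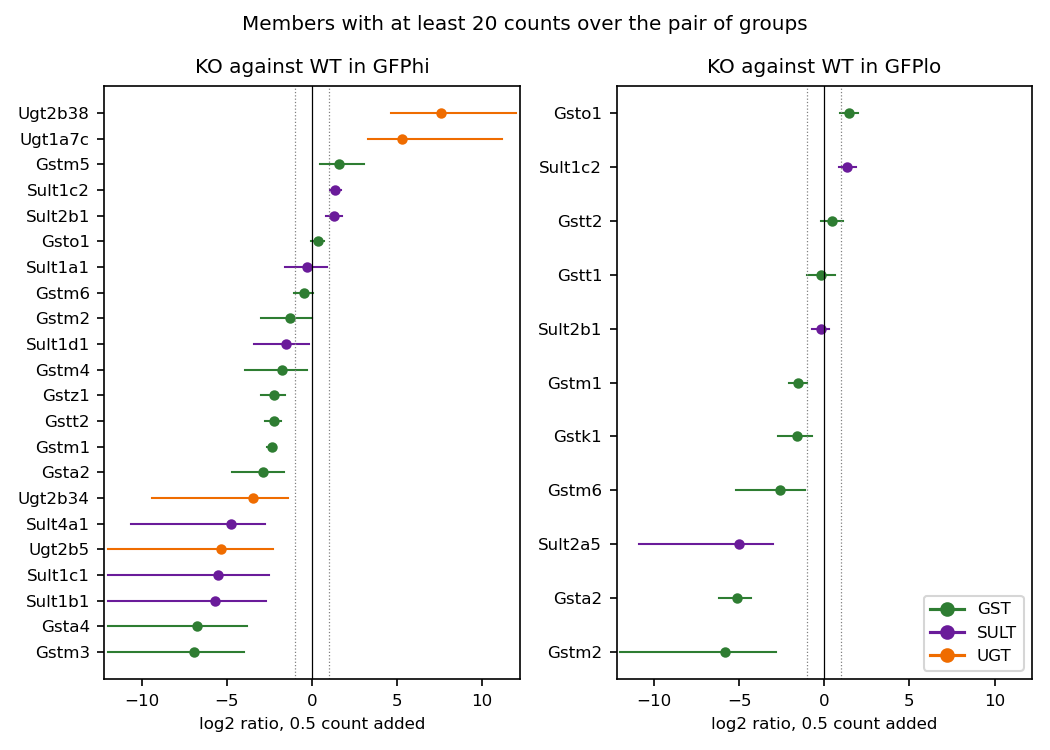
Points give the log2 ratio of KO over WT (x axis, 0.5 count added) for members with at least 20 counts over the pair, in GFPhi at left and GFPlo at right, coloured by family; bars are exact 95% counting intervals, drawn to 12 on either side where they reach further, and dotted lines mark a 2-fold difference. In GFPhi 14 of 22 members lie below the lower line and 5 above the upper one, and in GFPlo 6 and 2 of 11 do.

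In GFPlo cells, the summed level was again lower in KO, with 614 of the 1110 WT counts in 1 cell. All members were at 250 CPM (227 to 273) in KO and 491 (463 to 521) in WT, a ratio of 0.508 (0.455 to 0.567). By date the ratio was 0.323 and 1.41. Without the cell with most member counts in each group, in WT cell 9, the log2 ratio was -0.08 in place of -0.98, and without pool 4, the pool of cell 9, it was -0.18. Without pool 12 it was -1.45. The mean of the cells' own levels was 288 CPM in KO and 336 in WT. GSTs were 2.62-fold lower in KO (2.29 to 3.02) as a sum, 6.93-fold lower on the first date and 1.54 times as high on the second. Their log2 ratio of -1.39 was -0.10 without pool 4 and -0.33 without the cell with most GST counts in each group, and -1.89 without leukocyte-marked cells. Aire was also lower on the second date than on the first in both GFPlo groups, at 38.4 CPM in WT and 138 in KO. The part of this difference between dates in the result was not tested.

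Of 11 members with at least 20 counts over the GFPlo pair, 6 were lower in KO, beside 26.6% of 12347 genes, and 2 were higher, beside 21.5%. Those lower were Gstm2, Gsta2, Sult2a5, Gstm6, Gstk1 and Gstm1. Gstm2 had 34 counts in 6 WT cells and 0 in KO, at least 9.26-fold lower, with a log2 ratio of -5.82 that was -5.06 without pool 11. Gsta2 was 36.1-fold lower (19.998 to 72.8), with a log2 ratio of -5.11 that was -3.11 without the cell with most of its counts in each group, -1.64 without pool 4 and -6.49 without pool 1. Sult2a5 had 1 against 58 counts and Gstm6 3 against 26, of which 57 and 23 were from WT GFPlo cell 9. The log2 ratio of Sult2a5 was -4.99, -6.63 without pool 12 and 1.59 on the second date. Sult2a5 had only 3 counts on that date over all groups, too few to give a direction. The log2 ratio of Gstm6 was -2.63, -5.42 without pool 5 and -5.02 without leukocyte-marked cells. Gstk1 was 3.13-fold lower (1.63 to 6.496), with 12 against 46 counts. Its log2 ratio of -1.60 was -2.20 without pool 11, -2.66 without leukocyte-marked cells and 3.06 on the second date. On that date WT GFPlo had 1 Gstk1 count.

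Gstm1 was 2.91-fold lower in KO GFPlo (2.03 to 4.27). Its log2 ratio of -1.53 was -1.91 on the first date and 0.25 on the second, -0.71 without pool 4 and -2.14 without pool 11. Without leukocyte-marked cells it was -1.68. In GFPhi it had been lower in KO on each date.

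Sult1c2 and Gsto1 were higher in KO GFPlo. Sult1c2 was 2.52 times as high (1.78 to 3.61), and its log2 ratio of 1.33 was 1.45 and 3.70 on the 2 dates, though WT GFPlo had 1 count on the second. It was 1.72 without leukocyte-marked cells, 0.38 without pool 4, 2.87 without pool 6 and 2.02 without the cell with most of its counts in each group. It was also higher in KO in GFPhi, a comparison with other cells. Gsto1 was 2.73 times as high (1.89 to 4.01), with a log2 ratio of 1.44 that turned to -0.97 without leukocyte-marked cells, and was 0.83 without pool 12, 3.15 without pool 11 and 2.49 without the cell with most of its counts in each group. UGTs had 1 count in KO GFPlo against 23 in WT, a ratio of 0.053 (0.00129 to 0.328). A UGT count was found in 1 of 52 KO cells and 11 of 39 WT cells.

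Within WT, GFPhi and GFPlo had like sums but different members. All members were at 574 and 491 CPM, a ratio of 1.17 (1.08 to 1.26) that was 0.691 on the first date and 3.40 on the second. The log2 ratio of 0.22 was 1.01 without the cell with most member counts in each group (GFPhi cell 49 and GFPlo cell 9), 1.12 without pool 4, -0.24 without pool 11 and -0.18 without leukocyte-marked cells, so its direction was not stable. This comparison shares its WT cells with those above. Of 19 members with enough counts, 10 were higher in GFPhi, beside 25.7% of 13544 genes, and 6 were lower, beside 23.6%. Without leukocyte-marked cells 10 in place of 16 members were apart, and the share of all genes without these cells was not computed.

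Those higher in WT GFPhi included Gstm1, 3.64-fold (3.03 to 4.39), Gstt2, 3.81-fold (2.72 to 5.48), and Gstz1, 11.95-fold (5.32 to 33.3). Gstm1 was at 0.15 and 4.28 on the log2 scale on the 2 dates, 2.57 without pool 4, 1.15 without pool 11 and 0.88 without leukocyte-marked cells. Gstt2 was between 0.81 without pool 4 and 2.92 without pool 6, and 0.94 without leukocyte-marked cells. Gstz1 ranged from 2.26 without pool 5 to 7.13 without pool 1, with 6.03 without the cell with most of its counts in each group. Gstm3, Sult4a1, Sult1c1 and Ugt2b5 had counts in GFPhi and none in GFPlo, at least 15.2-fold, 9.99-fold, 5.65-fold and 5.00-fold higher. The Gstm3 counts were all in leukocyte-marked cells. Ugt2b34 had 19 counts against 1, and its direction turned in the mean of per-cell levels. Among those lower, Sult2a5 had 0 against 58 counts, at least 29.7-fold lower, and Gsta2 was 16.2-fold lower (11.96 to 22.4). The log2 ratio of Gsta2 was -4.00, -1.76 without the cell with most of its counts in each group, -0.58 without pool 4, -5.16 without pool 5 and 0.46 on the second date.

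Within KO, members differed little between the gates as a sum, at 325 CPM in GFPhi and 250 in GFPlo, a ratio of 1.30 (1.16 to 1.46). It was 1.40 and 1.28 on the 2 dates, and the log2 ratio of 0.38 was 0.03 without pool 11 and 0.12 without leukocyte-marked cells. This comparison shares its cells with the KO-to-WT comparisons. Of 11 members with enough counts, 4 were higher in GFPhi, beside 23.6% of 12420 genes, and 1 was lower, beside 24.4%. Those higher were Ugt2b38, Ugt1a7c, Gstm6 and Gstm1. Gstm1 was 2.03 times as high (1.41 to 2.98), with a log2 ratio of 0.39 without pool 4. Gstm6 had 48 against 3 counts, 9.81 times the level (3.16 to 49.3), and a log2 ratio of 3.09 that was 5.65 without pool 5, 2.04 without pool 1, 2.43 without pool 4 and 4.84 without the cell with most of its counts in each group. Gstt1 was lower, with 0 against 23 counts, at least 12.5-fold. Among members less than 2-fold apart, Gstt2 was at a log2 ratio of -0.77, Sult1c2 at 0.70 and Gsto1 at -0.36. Without leukocyte-marked cells these were -1.57, -0.087 and 2.23.

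The number of different members in a cell gave another view, since it does not grow with the counts of 1 gene. At 10000 counts a cell would show 2.11 ± 1.29 members (SD over cells, n = 55) in WT GFPhi, 1.33 ± 1.09 (n = 32) in WT GFPlo, 1.31 ± 0.851 (n = 44) in KO GFPhi and 1.18 ± 0.735 (n = 48) in KO GFPlo. Without thinning the means were 3.93, 2.28, 2.60 and 1.88. All genes detected per thinned cell were 2738, 2633, 2744 and 2514, so WT GFPhi and KO GFPhi differed in members by more than in all genes. WT GFPhi was above KO GFPhi on both dates, with 2.12 against 1.65 and 2.10 against 1.23, and also without leukocyte-marked cells, with 2.17 against 1.29. In GFPlo, WT was above KO on the first date, 1.93 against 1.19, and below it on the second, 0.871 against 1.18. The spread over cells was wide in every group.

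**Figure D5:**
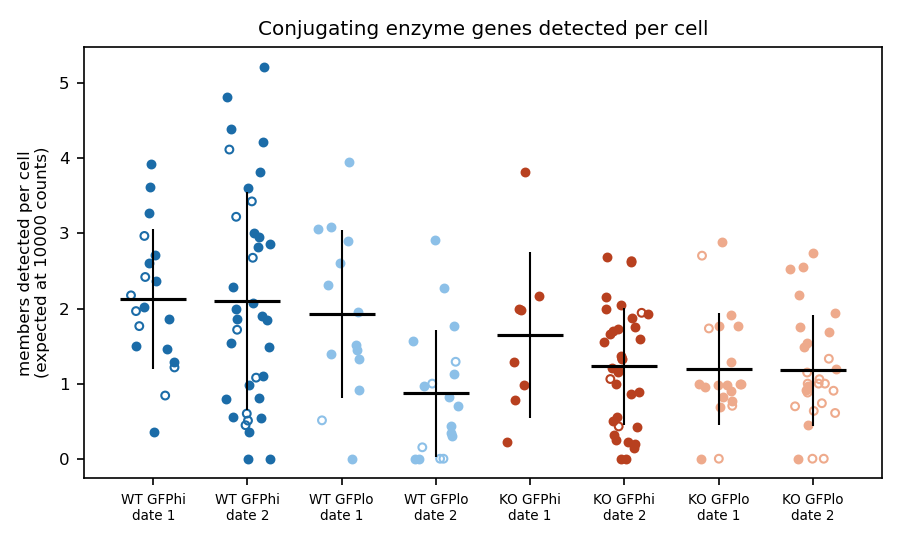
Each point is 1 cell with at least 10000 counts, by group and sort date (x axis), and the y axis is the number of the 60 members expected with a count when the cell is thinned to 10000 counts; open points are leukocyte-marked cells, bars are means and lines 1 SD. WT GFPhi has the highest cell, at 5.22 members, and means of 2.12 and 2.10 on the 2 dates, while KO GFPhi has 1.65 and 1.23.

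A few cells held several members each. WT GFPlo cell 9, with 307380 counts, had 9 members and 614 member counts, among them 445 of Gsta2, 65 of Gstm1, 57 of Sult2a5, 23 of Gstm6 and 11 of Gsta1. It also had 73 counts of Mbl2, a plasma protein of liver, and no count of the other 11 hepatocyte plasma protein genes of the list. WT GFPhi cell 19 had 46 counts of Gsta4, 27 of Sult1b1, 19 of Ugt2b34 and 13 of Ugt2b5, beside 476 counts of Apoc3, the only 1 of the 12 hepatocyte plasma protein genes found there. Of 10 enterocyte genes, Apoa4, Sis and Cdx1 were found in it, with 102 counts. Sult1b1, Ugt2b34 and Ugt2b5 lie in 1 cluster at chr5:86889767-87591594, whose 12 members had 204 counts in 22 cells, with 2 or more members in 6 of them. WT GFPhi cell 49, with 370365 counts, was leukocyte-marked (4240 leukocyte against 397 epithelial counts) and held 240 counts of Gstm1, 68 of Gstm3 and 60 of Sult1c2. The most members in 1 cell were 11, in WT GFPhi cells 48 and 50.

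The genes around these enzymes were read from lists of cofactor supply, other conjugating enzymes, hydrolases, efflux pumps and regulators, of which 59 of 60 genes are in the table. In GFPhi 8 of 36 listed genes with enough counts were at least 2-fold lower in KO and 10 higher, with a median log2 ratio of -0.18. In GFPlo 13 of 37 were lower and 6 higher, with a median of -0.64. Shares of 22.2% and 35.1% lower stand beside the 27.3% and 26.6% of all genes given above. Shares of 27.8% and 16.2% higher stand beside 19.6% and 21.5%. Between the gates, 10 of 37 were lower and 6 higher in GFPhi in WT, and 7 of 35 lower and 10 higher in KO. Of all genes, 23.6% were lower and 25.7% higher in WT, and 24.4% lower and 23.6% higher in KO.

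Ephx1, the microsomal epoxide hydrolase, was at 20.5, 16.4, 1.99 and 0.541 CPM in the 4 groups. The suppliers of the SULT donor, Papss1 and Papss2, were at log2 ratios of -0.10 and -0.03 in GFPhi. Gclc, the catalytic subunit that limits glutathione synthesis, was at 104, 201, 74.7 and 44.4 CPM, and Ugdh, which makes UDP-glucuronic acid, at 29.7, 4.87, 49.5 and 35.7 CPM. Of the regulators, Nfe2l2 was at 49.6, 119, 28.6 and 30.3 CPM, but 1 cell held 178 of its 270 counts in WT GFPlo. Nr1i2, the pregnane X receptor, was at 0 in all cells.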

How the data were processed

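The authors deposited 1 table of counts per gene and cell, without normalization, with a table of cell metadata. Per the submitters' processing notes, TopHat, TopHat2, Picard 1.79, SAMtools 0.1.19, HTSeq and mm10 were used, with no role or order given. Whether molecular identifiers were collapsed is not given in the sources used here, and in 40 cells the total exceeded the identifier count of the metadata, so counts were read as sequenced tags. If copies were not collapsed, the counting intervals are too narrow.

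All 200 cells were used, with no filter and no doublet step, and 0 pairs of cells were identical. Counts were summed per group. The labels name no animal, so no test was made, and each group is 1 sample. Ratios that set a group at 0 against another used 3 counts for that group. Expected detection at 10000 counts came from the hypergeometric distribution. The steps were tested on simulated data.

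Every member with at least 100 counts was described, and in each comparison the 8 members with the largest log2 ratio were named. Other members named, and cells named by their number within a group, were chosen after their values were seen. The members and gene lists were chosen with earlier results of these data known. Positions came from GENCODE M21 and all 60 members were placed. Promoters came from RefSeq (GRCm38.p6). Sums and intervals used scipy 1.17.1, pandas 2.3.3 and numpy 2.4.6 under Python 3.11.15, figures matplotlib 3.10.9, and TMM factors edgeR 4.0.16 in R 4.3.3. Alternatives were single sort dates, pools left out, primer kinds, other count minimums and depths, TMM scaling, the mean of per-cell levels and cells left out. Primer kinds, ls or umi, were read from the second part of the cell titles, which do not say that it names a primer. Leaving out the cell with most counts of a family or gene was added after the data were seen. Values of some listed genes are not reported here.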

Additional observations from a re-analysis of the deposited data

Results flagged for a closer look

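The summed UGT level differed between KO and WT in opposite directions in the 2 gates. The log2 ratio was 1.44 in GFPhi and -3.68 in GFPlo, and the difference between the gates was not tested. The GFPhi value had 144 KO and 61 WT counts, 82 of the former in 1 cell, and was -3.01 on the first sort date. The GFPlo value had 1 KO and 23 WT counts.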

How the results depend on the processing

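No paired analysis was possible because replicate numbers only name cells and no test was made. Alternatives with under 20 counts left were not counted here. Of 1107 alternative log2 ratios, 63 were opposite in sign to the value given, over 29 results, and 7 of these belonged to a value at least 2-fold apart. The log2 ratio of all members, KO over WT, in GFPhi was -0.82, and was -0.61 on the first date, -0.95 with ls primers, -0.30 with umi primers, -0.31 without Gstm1 and -0.93 to -0.73 with single pools left out. In GFPlo it was -0.98, and was -1.63 and 0.49 on the dates, -0.22 as the mean of per-cell levels, -1.29 and 0.69 with ls and umi primers, -0.085 without the cell with most member counts in each group and -1.45 to -0.18 with pools left out. GFPhi over GFPlo in WT was 0.22, and was -0.53 and 1.76 on the dates, 0.60 as the mean of per-cell levels, -0.18 without leukocyte-marked cells, 0.065 and 1.28 with ls and umi primers, 1.01 without those cells with most counts, -0.30 without Gstm1 and -0.24 to 1.12 with pools left out. The summed level of all members, GFPhi against GFPlo in KO, was 0.38, and was -0.079 as the mean of per-cell levels, 0.12 without leukocyte-marked cells and 0.030 to 0.61 with pools left out. Members at least 2-fold apart between KO and WT in GFPhi numbered 19, against 10 at a minimum of 50 counts and 34 with none. In GFPlo they numbered 8, against 14 at 10 counts and 27 with no minimum. Between gates they numbered 16 in WT, against 31 with no minimum and 10 without leukocyte-marked cells, and 5 in KO, against 10 at 10 counts and 21 with no minimum. The shares of all genes at these other minimums, or without leukocyte-marked cells, were not computed. With no minimum, a member with few counts in a single group can be called, so these numbers show no shift of the members. The 7 were, for KO over WT, UGTs in GFPhi on the first date (-3.01), Sult2b1 in GFPhi on the second (-0.59), GSTs (0.62) and Gstm1 (0.25) in GFPlo on the second and Gsto1 in GFPlo without leukocyte-marked cells (-0.97), and, for GFPhi over GFPlo in WT, Gsta2 on the second date (0.46) and Ugt2b34 as the mean of per-cell levels (-0.26). The cause was not tested.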

Other observations

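The cluster on chromosome 5 that holds Sult1b1, Sult1d1 and Sult1e1 ends 101029 bases from Csn2, a milk casein gene. Csn2 had 21153 counts in 184 of 200 cells, and Sult1e1 had 0 counts. All 9 cells with a count of Sult1b1 or Sult1d1 also had Csn2.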
